A study of Homo sapiens with 8 samples.

Results

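The nuclear genes for the subunits of respiratory complexes I to IV and of the ATP synthase, or complex V, were followed by ribosome profiling in G401 cells. Members were taken by symbol: the NDUFA, NDUFB, NDUFC, NDUFS and NDUFV genes without the NDUFAF assembly factors, SDHA to SDHD, the UQCR genes, COX4 to COX8 genes and the ATP5 genes. The rule found 90 genes of 20719 gene IDs listed, with 37 assigned to complex I, 4 to complex II, 9 to complex III, 19 to complex IV and 19 to complex V, and with 2 readthrough genes (ATP5MF-PTCD1 and NDUFC2-KCTD14), whose transcripts run into the next gene. NDUFA4 and NDUFA4L2 were placed with complex IV, where NDUFA4 is known to act despite its name. In 7 members no library held a count, and 80 members passed the filter on low counts and were tested.

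Complex I oxidizes NADH and complex II oxidizes succinate, complex III passes the electrons from coenzyme Q to cytochrome c, and complex IV hands them to oxygen. Complexes I, III and IV pump protons across the inner mitochondrial membrane, and the ATP synthase uses the returning protons to make ATP. Complexes I, III, IV and V are built from subunits translated on cytosolic ribosomes and from a few subunits encoded by mitochondrial DNA, while all subunits of complex II are encoded in the nucleus.

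G401 is a line from a rhabdoid tumor of the kidney that lacks SMARCB1, a subunit of the mSWI/SNF chromatin remodelers. The cells carried a Tet-On construct for SMARCB1 or for GFP, the control protein, and each line received doxycycline (Dox) at 0.1 μg/ml, or DMSO in its place, over 12 h. This gave 4 groups of 2 libraries: SMARCB1 Dox, SMARCB1 DMSO, GFP Dox and GFP DMSO. The labels do not say whether the 2 libraries of a group came from separate cultures, so p-values measure the spread between these libraries, which may be technical, and no source used here says how many clones each line represents. The values are raw footprint counts per gene, given below as CPM, the counts brought to a common library size with edgeR's TMM factors. They describe ribosome occupancy and cannot tell fewer mRNAs from fewer ribosomes per mRNA, nor a change in all cells from a change in some.

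Libraries held 5924443 to 14000039 counts on genes, and the members took 1.26% to 1.62% of them (75000 to 221277 counts). Footprints on SMARCB1 itself numbered 2553 and 1750 in SMARCB1 Dox, and the other 3 groups had 0. GFP Dox replicate 1 had 56.4% of its reads with more than 1 alignment, against 25.6% as the lowest share, and its log2 CPM correlated with that of its replicate at 0.956 across genes, the lowest of the 4 pairs (the others lay between 0.971 and 0.987).

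Many of these genes have processed pseudogenes or overlap another annotated gene, and a footprint is counted only where it aligns to 1 place and lies in 1 gene. For each member, every 30-base word of its main coding sequence was therefore looked up in the genome and in the other listed genes, and a word was called countable when it occurred at no other locus and lay in no other listed gene. The median member had 94.7% of its words countable, and 37 members had all of them, but 25 members had fewer than 50% and 5 had fewer than 10%. UQCRH, a small subunit of complex III, and UQCRHL, a near copy of it without an intron in the coding sequence, are an example. Their coding sequences, printed from the GRCh38 genome with capitals where they differ, have 273 bases each and differ at 4. The coding exons of UQCRH lie in chr1:46303767-46316581 (+ strand) and the coding sequence of UQCRHL is the exonic region chr1:15807377-15807649 (- strand).
UQCRH: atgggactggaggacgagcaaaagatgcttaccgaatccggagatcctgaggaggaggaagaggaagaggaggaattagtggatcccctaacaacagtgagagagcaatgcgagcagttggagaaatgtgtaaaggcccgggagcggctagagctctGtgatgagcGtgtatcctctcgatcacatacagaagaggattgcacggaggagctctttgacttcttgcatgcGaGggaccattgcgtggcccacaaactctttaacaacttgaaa
UQCRHL: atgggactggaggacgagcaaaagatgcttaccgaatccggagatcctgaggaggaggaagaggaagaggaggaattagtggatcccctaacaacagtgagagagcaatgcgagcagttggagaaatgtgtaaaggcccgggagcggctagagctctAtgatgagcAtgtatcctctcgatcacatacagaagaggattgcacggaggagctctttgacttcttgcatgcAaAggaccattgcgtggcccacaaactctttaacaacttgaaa
In both genes 29.1% of the words were countable. Of their joint level, UQCRH took 90.7% to 96.7% over the 8 libraries.

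The c-ring of the ATP synthase, the rotor that protons turn, differs from this pair. ATP5MC1, ATP5MC2 and ATP5MC3 encode the same mature c subunit behind different import sequences, yet their RNAs differ enough to be counted apart. The last 225 coding bases of the 3 genes are printed from GRCh38, with capitals where the 3 are not all the same. They differ at 52 bases, and 75 of 75 codons encode the same amino acid in all 3. They are coding exons, joined over introns, of chr17:48895222-48895766 (+ strand), chr12:53665317-53669260 (- strand) and chr2:175178291-175179169 (- strand).
ATP5MC1: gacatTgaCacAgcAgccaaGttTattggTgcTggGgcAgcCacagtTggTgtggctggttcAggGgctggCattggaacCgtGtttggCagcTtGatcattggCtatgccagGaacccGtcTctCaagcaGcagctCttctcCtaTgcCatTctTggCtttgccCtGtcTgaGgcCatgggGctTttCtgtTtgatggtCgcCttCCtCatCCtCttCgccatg
ATP5MC2: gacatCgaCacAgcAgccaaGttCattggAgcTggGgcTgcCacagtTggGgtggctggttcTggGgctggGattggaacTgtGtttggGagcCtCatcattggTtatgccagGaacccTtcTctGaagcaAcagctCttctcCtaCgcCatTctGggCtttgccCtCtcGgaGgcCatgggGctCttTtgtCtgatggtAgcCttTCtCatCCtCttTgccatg
ATP5MC3: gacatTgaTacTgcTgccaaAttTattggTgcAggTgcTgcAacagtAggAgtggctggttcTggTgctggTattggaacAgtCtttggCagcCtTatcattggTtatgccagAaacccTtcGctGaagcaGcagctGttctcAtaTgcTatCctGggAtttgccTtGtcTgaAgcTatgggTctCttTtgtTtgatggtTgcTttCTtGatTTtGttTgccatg
ATP5MC3 supplied 69.4% to 86.4% of the footprints per kilobase of the 3 genes, ATP5MC2 12.7% to 27.5% and ATP5MC1 0.861% to 3.14%. The order ATP5MC3, ATP5MC2, ATP5MC1 was the same in all 8 libraries, and it was also the order with countable words as the length.

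The members had high footprint levels per kilobase of coding sequence, compared with all genes tested. The 80 members tested had a median of 161 CPM per kilobase of coding sequence, against 18.6 over the genes tested, and their median percentile among those genes was 90.5. Their coding sequences were short, with a median of 417 bases against 1440. Without division by length the median levels were 80.8 and 28.3 CPM. The members were not compared with genes of like length. The median over tested members was 126 CPM per kilobase in complex I, 33.7 in complex II, 238 in complex III, 133 in complex IV and 337 in complex V. Levels per kilobase within a complex spread far more than these medians. The low ends include near copies and tissue-restricted forms with few counts, and genes with few countable words. How far the spread reflects the amounts of subunit made was not tested.

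**Figure D1:**
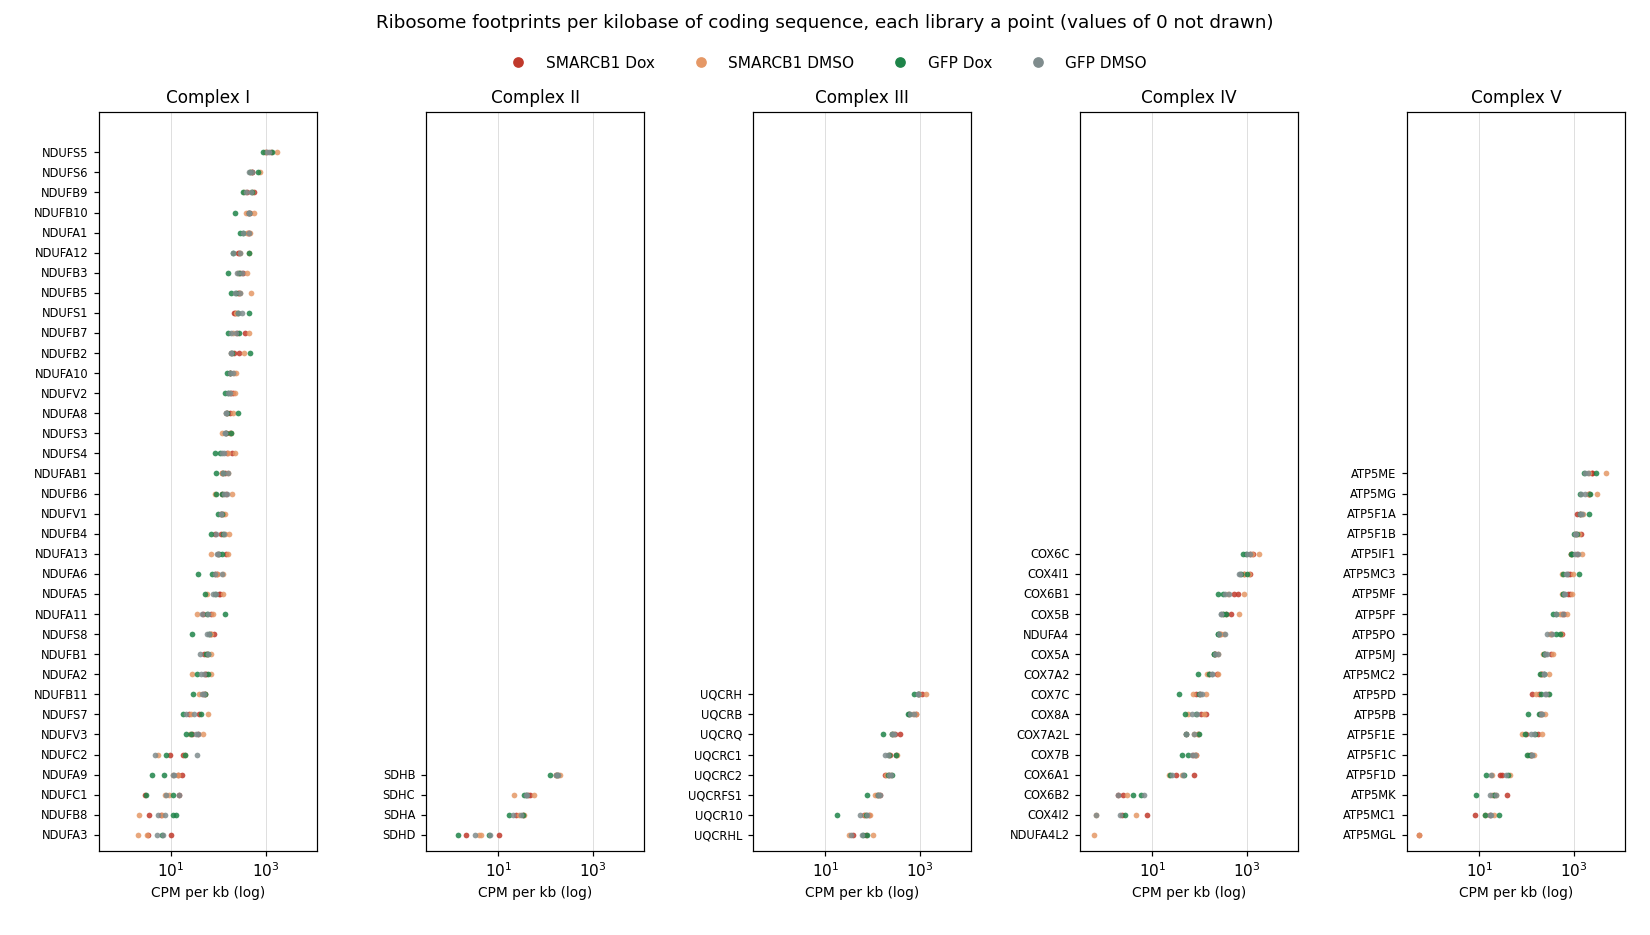
Footprint levels of members with a count, in CPM per kilobase of coding sequence on a log axis, by complex and in falling order, with 1 point per library coloured by group. The points of 1 gene lie close together compared with the distance between genes: in complex I the mean levels run from 4.59 (NDUFA3) to 1179 (NDUFS5), and in complex V from 0.131 (ATP5MGL) to 2466 (ATP5ME). ATP5MGL is a near copy of ATP5MG and had 3 counts in all.

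In complex I the nuclear core subunits carry the NADH site and the chain of iron-sulfur clusters. NDUFS1, the largest of them, had 274 CPM per kilobase, beside NDUFV2 at 176, NDUFS3 at 151 and NDUFV1, which binds NADH, at 115. NDUFS8 was lower at 61.7 and NDUFS7 at 32.7 CPM per kilobase, and of these genes all words were countable in each other than NDUFV2 (47.6%). The accessory subunit NDUFS5 was the highest of the complex at 1179 CPM per kilobase. NDUFA3, a small accessory subunit, was the lowest with a count, at 4.59 CPM per kilobase from 89 counts in all libraries. NDUFAB1, the mitochondrial acyl carrier protein that is also an accessory subunit, had 129 CPM per kilobase.

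Several low values in complex I coincide with overlap, and other low values do not. NDUFB8 had 6.79 CPM per kilobase with 9.64% of its words countable, and NDUFC2 had 14.8 with 14.3%. All coding bases of NDUFA7 lie in the listed gene ENSG00000167774, and NDUFA7 had no count in any library, so there was no base at which its footprints could be counted. NDUFC2-KCTD14 also had none. Per 1000 countable words, NDUFB8 had 74.3 CPM, a level that rests on 51 such words. NDUFC1 and NDUFA3 were also low, at 8.75 and 4.59 CPM per kilobase, with all words countable. NDUFB5 and NDUFA13 had 280 and 110 CPM per kilobase in spite of overlap. Of their coding bases, 306 of 567 and 315 of 432 lie in another listed gene.

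In complex II, SDHB, the iron-sulfur subunit, had 170 CPM per kilobase, SDHC, a membrane anchor, 39.9, SDHA, the flavoprotein that oxidizes succinate, 27.4, and SDHD, the other anchor, 4.86. The share of countable words was 99.8% in SDHB, 35.4% in SDHC, 21.4% in SDHA and 4.24% in SDHD. Per 1000 countable words SDHA had 130 CPM, SDHB 176 and SDHC 120, so the gap of SDHA and SDHC to SDHB was smaller on that scale, and SDHD had too few countable words for a level.

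In complex III the core proteins UQCRC1 and UQCRC2 had 252 and 224 CPM per kilobase, with 257 to 477 and 253 to 353 CPM over the libraries. UQCRFS1, the Rieske iron-sulfur protein, had 125 CPM per kilobase, or 516 CPM per 1000 countable words. UQCRH was the highest at 979 CPM per kilobase, and UQCRHL was the lowest with a count, at 59.96 beside 66.6 for UQCR10. Per 1000 countable words the order of the lowest turned, with 231 CPM for UQCRHL and 78.7 for UQCR10, whose words were all countable. The coding bases of UQCR11 all lie in the listed gene ENSG00000267059, and it had no count.

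In complex IV the nuclear subunits surround the catalytic core that mitochondrial DNA encodes, and several exist as paralogs used in different tissues. One paralog held nearly the whole level in most pairs. COX4I1 took 99.3% to 100% of the level of the COX4 pair, the rest falling to COX4I2, known from lung and from low oxygen. COX6B1 took 97.7% to 100% of its pair with COX6B2, a testis form. The heart and muscle forms COX6A2 and COX7A1 had no count in any library, and neither had COX7B2 and COX8C, while their partners COX6A1, COX7A2, COX7B and COX8A had 957, 3437, 1337 and 1456 counts. NDUFA4 had 5234 counts and NDUFA4L2, its paralog known from low oxygen, had 2, both in SMARCB1 DMSO replicate 2. COX7A2L, a factor that joins complexes III and IV, had 73.3 CPM per kilobase beside 174 for COX7A2. COX6C was the highest at 1179 CPM per kilobase. NDUFA4L2 was the lowest with a count, at 0.0746.

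In complex V, ATP5F1A and ATP5F1B, the alpha and beta subunits of the catalytic F1 head, had 1442 and 1142 CPM per kilobase. ATP5F1A had 1947 and 2162 CPM in SMARCB1 Dox, 2275 and 2516 in SMARCB1 DMSO, 3346 and 2162 in GFP Dox, and 2492 and 2244 in GFP DMSO. ATP5F1B had 1762 and 2181, 1668 and 2013, 1578 and 1861, and 1669 and 1762 CPM in the same order. GFP Dox replicate 1 was the highest library for ATP5F1A and the lowest for ATP5F1B, so these partners in the same head did not move together there. The F1 stalk subunits ATP5F1C, ATP5F1E and ATP5F1D followed at 122, 134 and 28.5 CPM per kilobase.

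The membrane subunits ATP5ME and ATP5MG had the highest levels per kilobase, 2466 and 1965 CPM. ATP5MG has 20.7% of its words countable, which is 58 words, near the minimum of 50 for a level. Per 1000 countable words it lay above ATP5ME, at 10469 and 2868 CPM, an order that rests on those few words. ATP5MGL, a near copy of ATP5MG, had 3 counts in all. ATP5IF1, which inhibits the enzyme when the membrane loses its potential and is not a working subunit, had 1045 CPM per kilobase beside the 1142 of ATP5F1B. The readthrough gene ATP5MF-PTCD1 had 15 counts, 12 of them in SMARCB1 DMSO replicate 2.

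Whether SMARCB1 re-expression changed occupancy of these genes was asked by comparing SMARCB1 Dox with SMARCB1 DMSO. By edgeR's quasi-likelihood test, fitted over all 11097 genes and adjusted by Benjamini-Hochberg, 0 of the 80 members were called at an adjusted p below 0.05 and a fold above 2, where 0.018% of all genes were. By edgeR 0 members had an unadjusted p below 0.05, against 4.97% of all genes. DESeq2 called 0 members, beside 0.306% of all genes. The median log2 fold change of the members was -0.09 against -0.02 over all genes, with 28 above 0 and 52 below (47.2% of all genes lay above). For 55 members (68.75%, beside 54.7% of all genes) the 95% interval lay within a 2-fold change in either direction, and for the other 25 a 2-fold change was not excluded.

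By complex, the median log2 fold change was -0.10 in complex I, 0.08 in complex II, -0.08 in complexes III and IV, and -0.12 in complex V. The members with the smallest p were NDUFB5, NDUFB4, ATP5PD and NDUFA10. NDUFB5, in the distal membrane arm of complex I, had 148 and 157 CPM in SMARCB1 Dox and 164 and 275 in SMARCB1 DMSO. The Dox libraries were the lower ones without overlap, with a log2 fold change of -0.53 (SE 0.27, edgeR adjusted p = 1). NDUFB4, in the same arm, had 43.4 and 33.3 CPM against 52.9 and 63.3, a log2 fold change of -0.60 (SE 0.31, edgeR adjusted p = 1).

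ATP5PD is a subunit of the peripheral stalk that holds the head of the ATP synthase still. Its values were 63.0 and 87.4 CPM with Dox and 74.6 and 138 CPM with DMSO. These groups overlapped, and the log2 fold change of -0.51 (SE 0.30, edgeR adjusted p = 1) became 0.01 without SMARCB1 DMSO replicate 2. NDUFA10, an accessory subunit of complex I, had 187 and 189 CPM against 223 and 249, with a log2 fold change of -0.33 (SE 0.22, edgeR adjusted p = 1). Among the core subunits of complex I named above the log2 fold changes lay between -0.49 (NDUFS7) and 0.19 (NDUFS8), and in complex II between -0.13 (SDHA) and 0.58 (SDHD). Libraries of the 2 groups did not overlap for 13 members, 4 with Dox above (17.3% of all genes) and 9 with Dox below (18.3% of all genes), so the members' shares of 5% and 11.25% were under those of all genes.

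**Figure D2:**
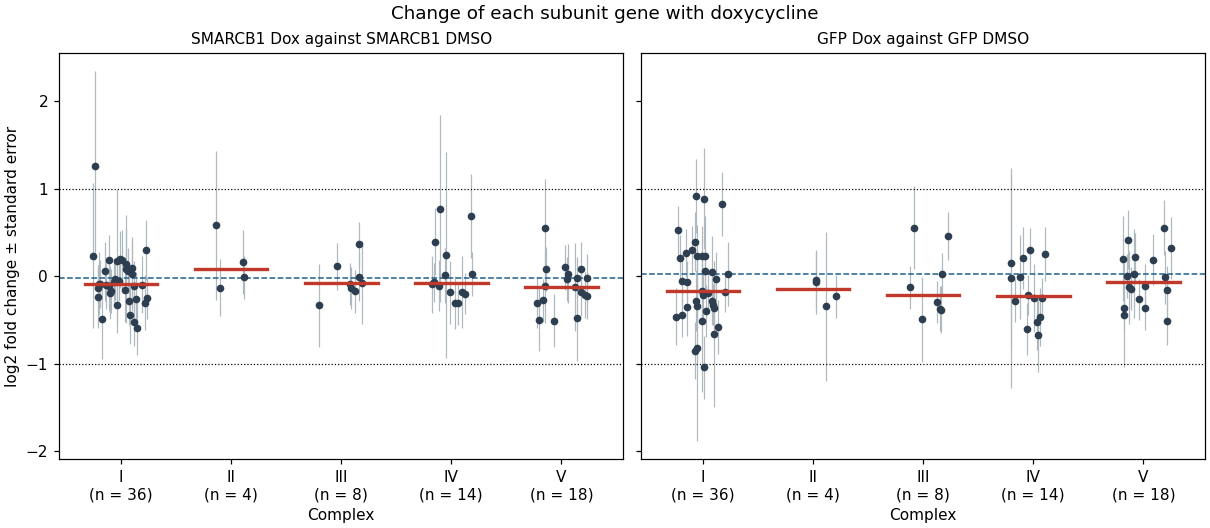
Log2 fold change of each tested member with doxycycline in the SMARCB1 line (left) and the GFP line (right), by complex, with standard errors as bars, the median of each complex as a red line, the median of all genes as a dashed line and 2-fold changes as dotted lines. In both panels most points lie between the dotted lines, and the complex medians run from -0.12 to 0.08 on the left and from -0.23 to -0.06 on the right.

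The sign of this small median depended on 1 library and on the scaling. With library size alone in place of TMM the members' median was 0.03 with 48 above 0, beside 0.09 over all genes. It lay below the median of all genes under both scalings. In SMARCB1 DMSO, replicate 2 was above replicate 1 for 76 of the 80 members, with a median log2 difference of 0.55, while over all genes it was above for 50.3%. Over the 1341 tested genes with a coding sequence under 600 bases, which 60 of the 80 members share, replicate 2 was above for 77.9% with a median of 0.43. The members' medians for replicate 2 against 1 were 0.15 in SMARCB1 Dox, 0.23 in GFP Dox and -0.10 in GFP DMSO. Without SMARCB1 DMSO replicate 2 the members' median log2 fold change with Dox was 0.23, with 63 above 0, and without replicate 1 it was -0.31, with 12 above 0. The part of coding length in this split was not tested.

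**Figure D3:**
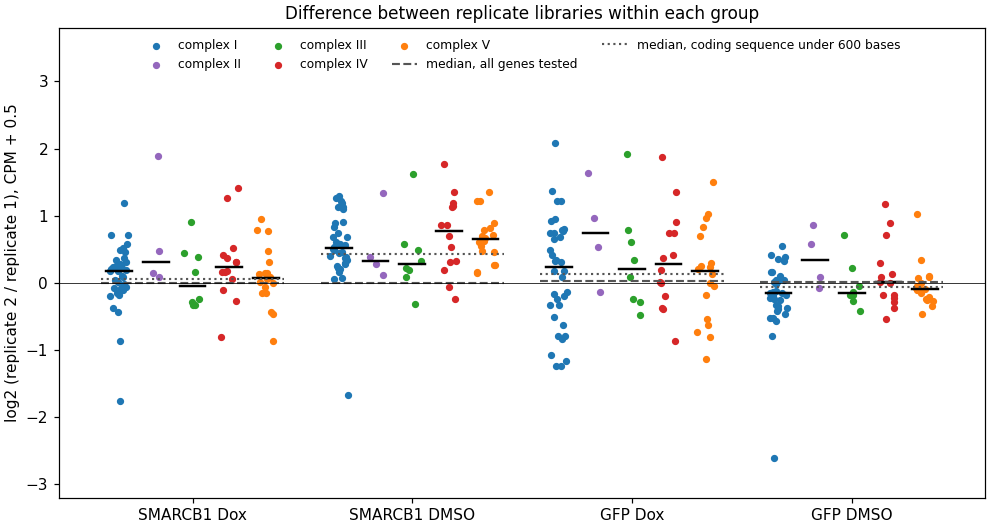
Log2 ratio of replicate 2 to replicate 1 (CPM + 0.5) for each tested member, by group and complex, with the median of each complex as a black line, the median of all genes tested dashed and that of genes with a coding sequence under 600 bases dotted. SMARCB1 DMSO stands apart, with 76 of 80 members above 0 and the dotted line at 0.43.

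Summed over a complex, the footprints in the 4 groups differed by less than the spread between libraries in most sums. All members together had 13655 ± 1012 CPM in SMARCB1 Dox, 14875 ± 3345 in SMARCB1 DMSO, 13422 ± 1537 in GFP Dox and 12870 ± 543 in GFP DMSO (SD, n = 2). Complex V alone had 6718 to 7673 CPM as group means and complex I 3544 to 3982. Complex IV had 1298 and 1509 CPM in SMARCB1 Dox, 1217 and 1810 in SMARCB1 DMSO, 1121 and 1062 in GFP Dox, and 1142 and 1083 in GFP DMSO. All 4 libraries of the SMARCB1 line were above all 4 of the GFP line for that sum, at 1.36 times under DMSO and 1.29 times under Dox. The same order held for complex III, with 1333 to 1609 CPM in SMARCB1 cells and 1245 to 1309 in GFP cells. Sums had no test here.

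The 13 subunits encoded by mitochondrial DNA, which other ribosomes translate, summed to 3135 to 7925 CPM per library. MT-ND6 supplied 66.7% to 89.4% of that sum, so the sum stands largely for 1 gene. Countable words were not looked up for these 13 genes, so how much of each could be counted is not known. Of the 13, edgeR and DESeq2 called 0 in either Dox comparison, with 0 (SMARCB1 line) and 1 (GFP line) at an unadjusted p below 0.05 by edgeR. Over all genes edgeR called 0.018% and 0% there, and 4.97% and 2.16% had an unadjusted p below 0.05.

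**Figure D4:**
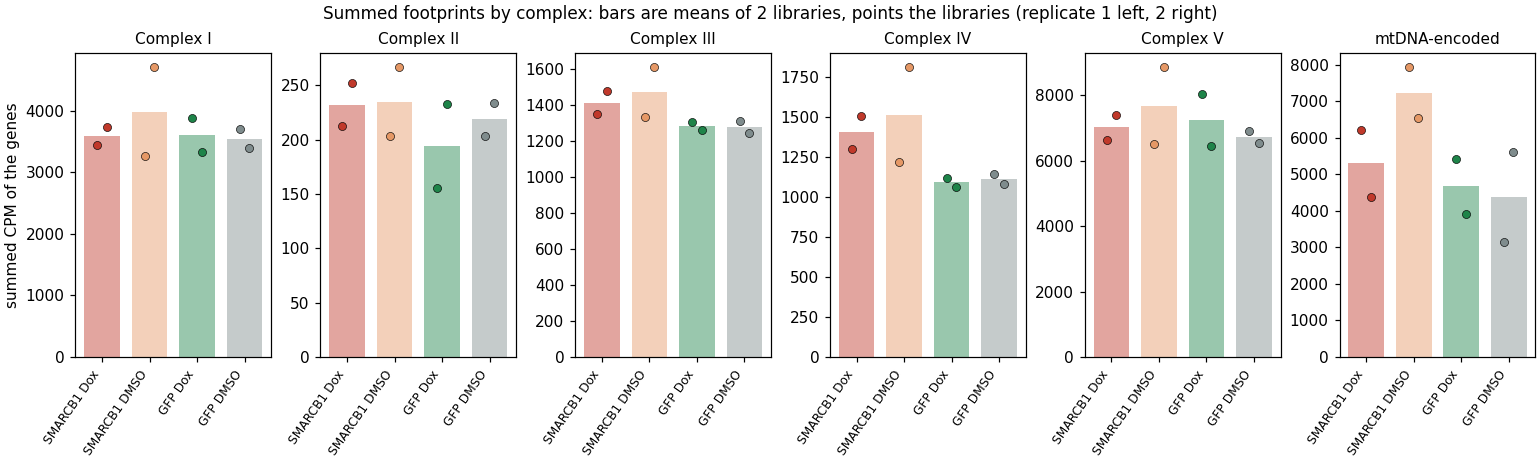
Summed CPM of the genes of each complex and of the 13 subunits encoded by mitochondrial DNA, with bars for the mean of 2 libraries and points for the libraries. Replicate 2 of SMARCB1 DMSO is the highest library in every nuclear sum, and in complex IV the GFP libraries lie between 1062 and 1142 CPM, below the SMARCB1 line's 1217 to 1810.

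The GFP line received doxycycline together with induction of GFP, and no group received it without an induced protein. By edgeR 0 of 80 members were called between GFP Dox and GFP DMSO, as for all genes (0%), and 4 had an unadjusted p below 0.05, which is 5% of the members beside 2.16% of all genes. DESeq2 called 0 members, as for all genes (0%). The members' median log2 fold change was -0.14 against 0.02 over all genes, and 29 of 80 lay above 0 (52.9% of all genes). Libraries did not overlap for 33 members, 10 with Dox above (13.1% of all genes) and 23 with Dox below (13.2% of all genes), which is 12.5% and 28.75% of the members tested. GFP Dox replicate 1, the library with most reads of several alignments, moved these values: without it the members' median was -0.04, with 36 above 0 and 0 at an unadjusted p below 0.05 in edgeR's test, and without replicate 2 it was -0.31 with 21.

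NDUFA9, an accessory subunit that holds the joint between the arms of complex I, had the smallest p. It had 4.47 and 7.84 CPM in GFP Dox and 12.3 and 13.2 in GFP DMSO, so the Dox libraries were lower without overlap. The log2 fold change was -1.04 (SE 0.36, edgeR adjusted p = 1). NDUFA6, an accessory subunit of complex I, had 14.4 and 27.8 CPM against 44.5 and 32.0, a log2 fold change of -0.85 (SE 0.33, edgeR adjusted p = 1). NDUFB2 had 146 and 61.5 CPM against 58.2 and 58.5, and NDUFA11 58.9 and 24.6 against 19.2 and 24.8. In both the high value was that of GFP Dox replicate 1 alone, and the log2 fold changes of 0.83 (SE 0.37) and 0.92 (SE 0.42) were 0.07 and 0.15 without it.

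The difference between the Dox effects of the lines was fitted directly, and edgeR called 0 of 80 members, as for all genes (0%). An unadjusted p below 0.05 was found for 1 member, NDUFA9, beside 3.99% of all genes. DESeq2 called 0 members, beside 0.00901% of all genes. The median difference was 0.09 against -0.03, with 45 members above 0 (47.7% of all genes). In NDUFA9 the SMARCB1 effect exceeded the GFP effect by 1.34 on the log2 scale (SE 0.50, edgeR adjusted p = 0.981). UQCRQ, a small subunit of complex III, had a difference of 0.74 (SE 0.36), NDUFB2 of -0.99 (SE 0.52) and NDUFA12 of -0.84 (SE 0.47), all with the same edgeR adjusted p of 0.981. In NDUFA9 and UQCRQ (2.5% of members, 4.66% of all genes) the libraries did not overlap in either line and the Dox effects lay in opposite directions. For 17 members (21.25%) the 95% interval of this difference lay within a 2-fold change, near the share over all genes (21.4%). For the other members a 2-fold difference between the responses of the lines was not excluded.

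The lines were also compared with each other, which sets apart cells that differ in history as well as in construct. Under DMSO, with neither protein induced, edgeR called 0 of 80 members, where 4.97% of all genes were called. By edgeR 7 members had an unadjusted p below 0.05 (8.75% against 13.9% of all genes), and DESeq2 called 0 (5.73% of all genes). Of the members 60 lay higher and 20 lower in the SMARCB1 line, where 51.5% of all genes lay higher, with a median log2 difference of 0.14 against 0.02. Libraries did not overlap for 17 members with the SMARCB1 line above (22% of all genes) and 2 with it below (22.8% of all genes). These are 21.25% and 2.5% of the members, so the share above was near that of all genes and the share below was under it. The surplus of higher over lower members rested on SMARCB1 DMSO replicate 2: without it the median was -0.10 with 29 higher, and without replicate 1 it was 0.41 with 72 higher.

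COX5B, a nuclear subunit of complex IV that binds zinc, had 122 and 266 CPM in SMARCB1 DMSO and 107 and 108 in GFP DMSO, a log2 difference of 0.86 (SE 0.31, edgeR adjusted p = 0.170). NDUFS4, an accessory subunit of complex I whose loss is a known cause of Leigh syndrome, had 84.4 and 119 CPM against 60.7 and 68.2, a difference of 0.66 (SE 0.25, edgeR adjusted p = 0.206). For both genes the SMARCB1 libraries lay above without overlap. ATP5ME had 422 and 984 CPM against 407 and 344, and ATP5MG 614 and 936 against 525 and 434, with log2 differences of 0.91 (SE 0.36) and 0.69 (SE 0.29). In COX5B and ATP5ME the first SMARCB1 library lay near the GFP libraries and the second far above them.

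Under doxycycline edgeR called 1 of 80 members between the lines, 1.25% where 6.08% of all genes were called, and 10 members had an unadjusted p below 0.05 (12.5% against 18.7% of all genes). The member called was NDUFA9. It had 15.98 and 19.0 CPM in SMARCB1 Dox and 4.47 and 7.84 in GFP Dox, without overlap, and was 2.82 times as high in the SMARCB1 line (log2 difference 1.50, SE 0.36, edgeR adjusted p = 0.0222). Under DMSO its 12.3 and 15.8 CPM in the SMARCB1 line overlapped the 12.3 and 13.2 of the GFP line (log2 difference 0.15, SE 0.34), so the GFP Dox pair was the low one of the 4 groups.

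NDUFA9 rests on few counts, 27 and 53 in GFP Dox and 191 and 120 in SMARCB1 Dox. Of its words, 84.8% also lie in the listed gene ENSG00000255639, where the counting gives a read to neither gene. The bases that a countable word covers, 192 of 1131, are at the end of the coding sequence, from base 935, and are printed in capitals from GRCh38 (chr12:4685297-4687105, + strand, exons with the intron left out).
NDUFA9: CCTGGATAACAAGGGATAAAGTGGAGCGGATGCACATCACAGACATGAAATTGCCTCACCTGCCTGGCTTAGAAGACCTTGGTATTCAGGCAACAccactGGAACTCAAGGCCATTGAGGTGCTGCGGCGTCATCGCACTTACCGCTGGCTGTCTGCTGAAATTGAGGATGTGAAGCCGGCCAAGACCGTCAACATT
The value thus describes occupancy at this end of the gene. The call was lost without SMARCB1 Dox replicate 1, SMARCB1 Dox replicate 2 or GFP Dox replicate 1, with edgeR adjusted p-values of 0.0885, 0.156 and 0.1196, and when only the groups compared were fitted (0.0856). The log2 differences there were 1.62, 1.37, 1.15 and 1.50, and a group left with 1 library was assumed to vary like the others.

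COX6B1, the subunit of complex IV that faces cytochrome c, came next, with all of its words countable. It had 168 and 139 CPM in SMARCB1 Dox and 62.0 and 80.5 in GFP Dox, without overlap, a log2 difference of 1.11 (SE 0.33, edgeR adjusted p = 0.0629). Across the other settings of the test, with all libraries of the 2 groups kept, its adjusted p ran from 0.00115 to 0.0817. It was called in 5 of them, DESeq2 among them. With each library of the 2 groups left out in turn, its log2 difference lay between 0.93 and 1.31. Like NDUFA9, it was not called without SMARCB1 Dox replicate 1, SMARCB1 Dox replicate 2 or GFP Dox replicate 1. Under DMSO it had 99.7 and 227 CPM against 108 and 89.1, which overlapped. NDUFS4 had 80.4 and 100.2 CPM against 44.8 and 56.6, a log2 difference of 0.83 (SE 0.26, edgeR adjusted p = 0.0743), and UQCRQ 94.0 and 74.7 against 40.4 and 61.7, a difference of 0.73 (SE 0.26, edgeR adjusted p = 0.128).

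The Dox libraries of the lines did not overlap for 35 members, 29 with the SMARCB1 line above (23.2% of all genes) and 6 with it below (22.9% of all genes), or 36.25% and 7.5% of the members. Of the members 60 lay higher and 20 lower (49.1% of all genes lay higher), with a median log2 difference of 0.21 against -0.01 over all genes, and with 0.31, 0.16, 0.14 and 0.34 as the medians without SMARCB1 Dox replicate 1 or 2 and GFP Dox replicate 1 or 2. By complex the medians were 0.17, 0.27, 0.31, 0.49 and 0.15 for complexes I to V, so complex IV lay farthest from 0, with 12 of 14 members higher. In complex II 4 of 4 members were higher. Under DMSO the medians between the lines were 0.15, 0.04, 0.24, 0.19 and 0.12, and complex III lay farthest from 0.

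**Figure D5:**
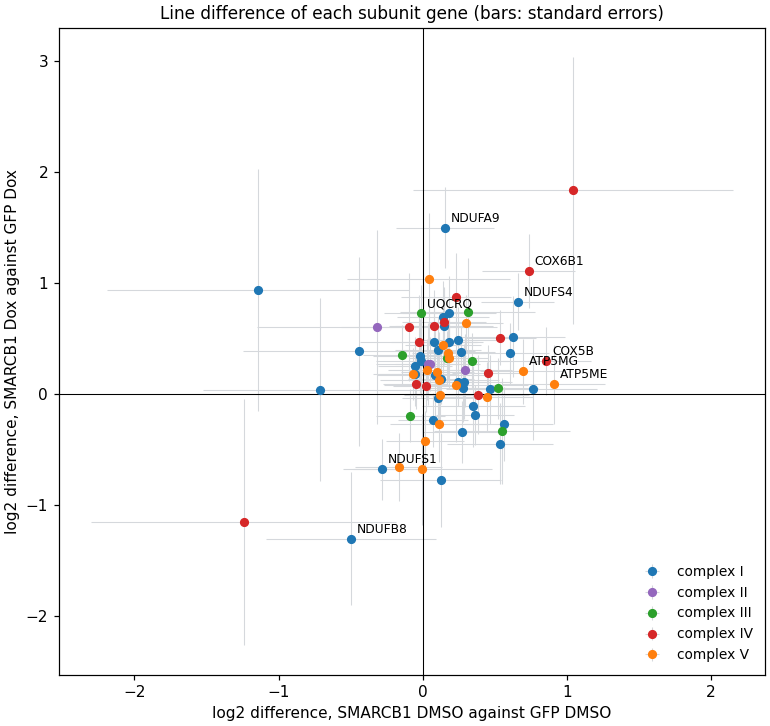
Log2 difference between the SMARCB1 and GFP lines under DMSO (x axis) and under doxycycline (y axis) for each tested member, coloured by complex, with standard errors as bars. Of 80 members 46 lie at the upper right and 6 at the lower left of the zero lines, NDUFA9 and COX6B1 are the labelled genes highest on the y axis, and the points with long bars are genes of few counts.

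The comparisons of the lines under DMSO and under doxycycline use separate libraries of the same lines. Of the 80 members 46 were higher in both, 6 lower in both and 28 opposite, which is 65% of the same sign. Of all 11097 genes tested 3636 were higher in both and 3574 lower in both, with 65.0% of the same sign. Since 60 of the 80 members were higher in each comparison, signs agree often even without a tie between them, so the 2 shares are not alike in meaning. Across genes, which are not independent replicates and share the lines, Pearson's r of the differences was 0.27 over the members and 0.77 over all genes tested. All 4 SMARCB1 libraries lay above all 4 GFP libraries for NDUFS8, NDUFS4, COX6C and UQCRH (5% of members, 8.61% of all genes) and below them for NDUFS1 (1.25% of members, 8.95% of all genes). NDUFS1 had 494, 466, 503 and 525 CPM in SMARCB1 cells and 975, 563, 679 and 572 in GFP cells. COX6C had 264, 295, 284 and 410 CPM against 184, 209, 254 and 223.

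Genes around the complexes were read from lists on the same fit. Of 50 tested assembly factors, 0 were called in either Dox comparison or in the difference by edgeR (1 at an unadjusted p below 0.05 in each) or DESeq2, and edgeR called 1, lower in SMARCB1 cells, in both comparisons of the lines, where 4.97% and 6.08% of all genes were called. This was COA7, a factor for assembly of complex IV, with 27.3, 31.7, 21.7 and 37.6 CPM in SMARCB1 cells and 61.4, 57.1, 59.2 and 63.0 in GFP cells. All SMARCB1 libraries were below all GFP libraries. Its log2 difference was -1.03 under DMSO (SE 0.28, edgeR adjusted p = 0.0442) and -1.01 under doxycycline (SE 0.28, edgeR adjusted p = 0.0449). DESeq2 called COA7 in both, where it called 5.73% (DMSO) and 7.29% (Dox) of all genes. It also called UQCC3, an assembly factor of complex III, under DMSO, with 59.7 and 99.4 CPM against 40.6 and 38.8 (log2 difference 1.01, edgeR adjusted p = 0.0738).

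Among 14 genes of the tricarboxylic acid cycle, 0 were called by edgeR or DESeq2 with Dox in either line. By edgeR 2 and 0 had an unadjusted p below 0.05, beside 4.97% and 2.16% of all genes. Under DMSO edgeR called 1 of the 14 between the lines, where 4.97% of all genes were called. This was OGDH, a subunit of 2-oxoglutarate dehydrogenase, lower in the SMARCB1 line. It had 68.4 and 76.4 CPM against 131 and 160, a log2 difference of -1.005 (SE 0.23, edgeR adjusted p = 0.0175). Under doxycycline it had 95.2 and 110.7 CPM against 173 and 152, without overlap, at a log2 difference of -0.66 (SE 0.23, edgeR adjusted p = 0.118). Of 11 tested regulators of mitochondrial biogenesis, edgeR called 1 under DMSO, again beside 4.97% of all genes. This was PPARGC1B, a coactivator of such genes. It was higher in the SMARCB1 line, with 35.0 and 57.2 CPM against 15.1 and 19.0 (log2 difference 1.44, SE 0.33, edgeR adjusted p = 0.0160). With doxycycline PPARGC1B had 28.4 and 27.7 CPM against 29.6 and 16.9, which overlapped. The 11 genes of coenzyme Q synthesis and the 8 tested remaining subunits and carriers, cytochrome c among them, had 0 calls by edgeR or DESeq2 in all 5 comparisons, with 0 to 2 at an unadjusted p below 0.05 by edgeR. Over all genes edgeR called 0% to 6.08% in these comparisons, and 2.16% to 18.7% had an unadjusted p below 0.05.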

How the data were processed

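Ribosome profiling of 8 libraries was analysed; the RNA-seq of the study was not used here. The authors made footprints with a RiboLace kit from pooled plates, aligned them with STAR and counted coding sequences of GENCODE 42 with HTSeq (intersection-strict), and deposited raw counts per gene ID. The strand option, trimming and versions are not given in the sources used here, so antisense reads may not be separable. HTSeq's 5 summary rows were left out of library sizes. The 20719 IDs were matched to symbols of GENCODE 44, where 311 had none. The members and gene lists were chosen with earlier results of these data known.

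Counts were filtered (filterByExpr), TMM-scaled and fitted with edgeR 4.0.16 (glmQLFit, 1 term per group, all 8 libraries, R 4.3.3), with DESeq2 1.42.0 as an alternative. Calls needed an adjusted p below 0.05 and a fold above 2, and standard errors came from the F statistic. The test was also run on simulated counts, but the settings and outcome of that run are not given here. Levels used the canonical coding sequence or 30-base countable words (at least 50), since footprint lengths are not given. Named members were those with adjusted p below 0.05 or, where fewer than 4, the 4 smallest p of each comparison, core subunits, paralog families, the highest and lowest of each complex and members outside the working enzymes; 1 member is not reported here. Replicate libraries differed beyond sampling noise (chi-square over its degrees of freedom 15.1 to 47.8) and were kept apart. Alternatives were other scalings, filters, tests and sample sets. Intervals and limits cover counting error and library spread only.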

Additional observations from a re-analysis of the deposited data

Results flagged for a closer look

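In 2 members the Dox and DMSO libraries did not overlap in either line and the effects lay in opposite directions, which was so for 4.66% of all genes tested. In both, Dox was above DMSO in the SMARCB1 line and below it in the GFP line. NDUFA9 had log2 fold changes of 0.30 and -1.04 in the lines, a difference of 1.34 (edgeR adjusted p = 0.981). UQCRQ had 0.36 and -0.38, a difference of 0.74 (edgeR adjusted p = 0.981). The difference of neither gene passed the threshold. With each library left out in turn the difference lay between 0.998 and 1.81 for NDUFA9 and between 0.47 and 1.08 for UQCRQ.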

How the results depend on the processing

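In 4 comparisons (both Dox effects, their difference and the lines under DMSO) the main count of members called was 0. It stayed at 0 under each setting run, except between the lines under DMSO without SMARCB1 DMSO replicate 1. There 3 members (ATP5ME, COX5B and COX6B1) were called, where 3.76% of all genes were called. That fit had 1 library left in SMARCB1 DMSO. The count in that comparison ranged from 0 to 3 over libraries left out. Between the lines under doxycycline the count of 1 became 2 (NDUFA9 and COX6B1) with library size alone, with DESeq2, without a filter on low counts and with the replicate number as a block. In that order 5.52%, 7.29%, 5.82% and 6.61% of all genes were called. With only the groups compared the count of members was 1, COX6B1 in place of NDUFA9, beside 4.87% of all genes. Leaving out libraries gave 0 to 10 members, with 10 without GFP Dox replicate 2, where 11.8% of all genes were called. With Dox in the SMARCB1 line ATP5PD turned from -0.51 to 0.00949 without SMARCB1 DMSO replicate 2 and was at -0.88 without replicate 1. The cause of these changes was not tested. Library size alone moved the median of all genes to 0.11 between the lines under doxycycline and that of the members to 0.35, and for the difference between the Dox effects to 0.16 and 0.30. Deviations of equally numbered libraries correlated at 0.0461 to 0.322 over 6 pairs of groups, 5 above 0.1 and 1 below it. No source used here says what the number marks, so it was not taken as a pairing. The block changed no other count of members called, but members at an unadjusted p below 0.05 went from 0 to 2 and from 4 to 9 with Dox in the SMARCB1 and GFP lines, from 1 to 2 for the difference, and from 7 to 9 and from 10 to 18 between the lines under DMSO and Dox. With Dox in the SMARCB1 line calls over all genes went from 2 to 13.

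Levels per kilobase depend on the length used: per 1000 countable words NDUFS5 had 1719, UQCRH 3765, COX6C 1525 and ATP5MG 10469 CPM, and ATP5MG in place of ATP5ME was the highest of complex V and UQCR10 in place of UQCRHL the lowest of complex III. Without the minimum fold the members called were the same (0, and NDUFA9 between the lines under doxycycline). Members with few countable bases are known least.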
